A study of Mus musculus with 2 samples.

Results

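*Lyve1* encodes a hyaluronan receptor of the cell surface, and it divided the PK44 cells of the E10.0 mouse yolk sac into cells with many *Lyve1* transcripts and cells with few. PK44 is the sorted fraction CD41- CD43- CD45- CD31+ CD201+ Kit+ CD44+, which is meant to hold endothelial cells that can give rise to blood. Cells were selected on the *Lyve1* level in CPM (the count of a gene in a cell, divided by all counts of that cell and multiplied by 1000000). A cell with at least 500 CPM was Lyve1-high and a cell below it Lyve1-low, and 3 cells with 100 or more counts of the collagen gene *Col1a1* were left out beforehand. Of the 87 cells, 84 were kept, of which 38 were Lyve1-high and 46 Lyve1-low. All came from E10.0 yolk sac of mice on a C57BL/6 background, without treatment, and formed 2 libraries made by STRT-seq, a well-based method that counts transcripts at their 3' end by unique molecular identifiers. Replicate 1 gave 17 Lyve1-high and 24 Lyve1-low cells, and replicate 2 gave 21 and 22. The labels do not say how many embryos stand behind a library, so differences between the 2 libraries may be technical.

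The endothelium of the yolk sac forms the first vessels of the embryo and includes hemogenic endothelial cells, which turn into blood cells under control of the transcription factor Runx1. *Lyve1* is best known from lymphatic vessels, but it is also carried by yolk sac endothelium, by the sinusoidal endothelium of the liver and by some tissue macrophages. Sinusoidal endothelium clears hyaluronan, collagen fragments, modified lipoproteins and immune complexes from the blood by scavenger receptors, among them stabilin-1, stabilin-2 and the mannose receptor, encoded by *Stab1*, *Stab2* and *Mrc1*.

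The comparison asked which other genes differed between Lyve1-high and Lyve1-low cells. Genes of scavenger endothelium were among those that rose: *Stab2* was higher in Lyve1-high cells by 3.18 ± 0.38 (SE) on the log2 scale, *Maf* by 3.88 ± 0.53, *Mrc1* by 2.44 ± 0.45 and *Stab1* by 1.71 ± 0.39. *Cldn5*, *Sparc* and *Nid1*, which encode a tight junction protein and matrix proteins of endothelium, rose as well. Among the genes that fell were *Coro1a*, an actin regulator of leukocytes, *Vwf*, which encodes von Willebrand factor, and *Nhp2* and *Phgdh*, which serve ribosome assembly and serine synthesis. Of the lymphatic, arterial and cell cycle lists, 0 genes passed the test, where 0.341% of all genes tested did.

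The promoters of the 3 scavenger receptor genes are shown because these genes moved together. Each window, from RefSeq on build GRCm38.p6, runs 5' to 3' on the strand of the gene from 250 bases before to 50 after a start of transcription. For *Stab2* and *Stab1* this start lay inside the gene span given below, and for *Mrc1* at its beginning. Capitals mark the letters of 4 short motifs on either strand. The ETS motif was searched as CAGGAA and the RUNX motif as TGTGGT. The motif of GATA factors was searched as AGATAA and that of MAF factors as TGCTGA, and no match overlapped one of another motif.
Stab2, chr10:87007893-87008192, minus strand: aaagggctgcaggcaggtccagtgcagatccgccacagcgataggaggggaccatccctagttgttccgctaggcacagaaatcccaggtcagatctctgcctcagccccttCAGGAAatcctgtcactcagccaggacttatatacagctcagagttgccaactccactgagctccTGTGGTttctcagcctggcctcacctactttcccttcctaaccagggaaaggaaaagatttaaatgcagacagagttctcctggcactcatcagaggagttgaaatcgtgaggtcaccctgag
Stab1, chr14:31168592-31168891, minus strand: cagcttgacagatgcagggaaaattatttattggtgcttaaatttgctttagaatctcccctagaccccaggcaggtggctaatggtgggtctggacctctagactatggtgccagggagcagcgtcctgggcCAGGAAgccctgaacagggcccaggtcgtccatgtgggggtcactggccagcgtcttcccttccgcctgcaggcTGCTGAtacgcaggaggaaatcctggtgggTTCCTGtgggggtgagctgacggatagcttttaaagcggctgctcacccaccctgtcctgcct
Mrc1, chr2:14229164-14229463, plus strand: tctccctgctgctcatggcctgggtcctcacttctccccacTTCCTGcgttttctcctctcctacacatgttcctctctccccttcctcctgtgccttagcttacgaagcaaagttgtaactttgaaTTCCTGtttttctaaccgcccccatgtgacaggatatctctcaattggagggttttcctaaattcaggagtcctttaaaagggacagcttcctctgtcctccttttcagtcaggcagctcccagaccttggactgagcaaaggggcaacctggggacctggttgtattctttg
The *Stab2* window held 1 ETS and 1 RUNX match, that of *Stab1* 2 ETS matches and 1 MAF match, and that of *Mrc1* 2 ETS matches. Of all 32851 windows in the table, 30.6% held the ETS letters, 11.2% GATA, 19.5% MAF and 16.8% RUNX. The 29 of 36 called genes that matched the table had 38 windows, of which 9 held ETS, 7 MAF, 6 RUNX and 0 GATA letters. A match describes the letters of a window and is no evidence of binding.

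*Lyve1* itself set the groups and is described without a test. In Lyve1-high cells of replicate 1 it ranged from 643 to 8966 CPM with a median of 1692 CPM, and in those of replicate 2 from 531 to 4910 CPM with a median of 1947 CPM. Lyve1-low cells ranged from 0 to 487 CPM (median 19.1) in replicate 1 and from 3.66 to 435 CPM (median 62.2) in replicate 2. The cells nearest the threshold stood at 487 and 643 CPM (replicate 1) and at 435 and 531 CPM (replicate 2), the next ones at 454 and 727 CPM and at 403 and 670 CPM. Only 5 and 7 cells lay from 250 to under 1000 CPM, whereas 20 and 16 cells were under 100 CPM. *Lyve1* was at 0 counts in 4 Lyve1-low cells of replicate 1 and in none of replicate 2. The share of Lyve1-high cells was 41.5% of kept cells (95% Clopper-Pearson interval 26.3% to 57.9%) in replicate 1 and 48.8% (33.3% to 64.5%) in replicate 2, and these intervals cover counting error only.

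**Figure D1:**
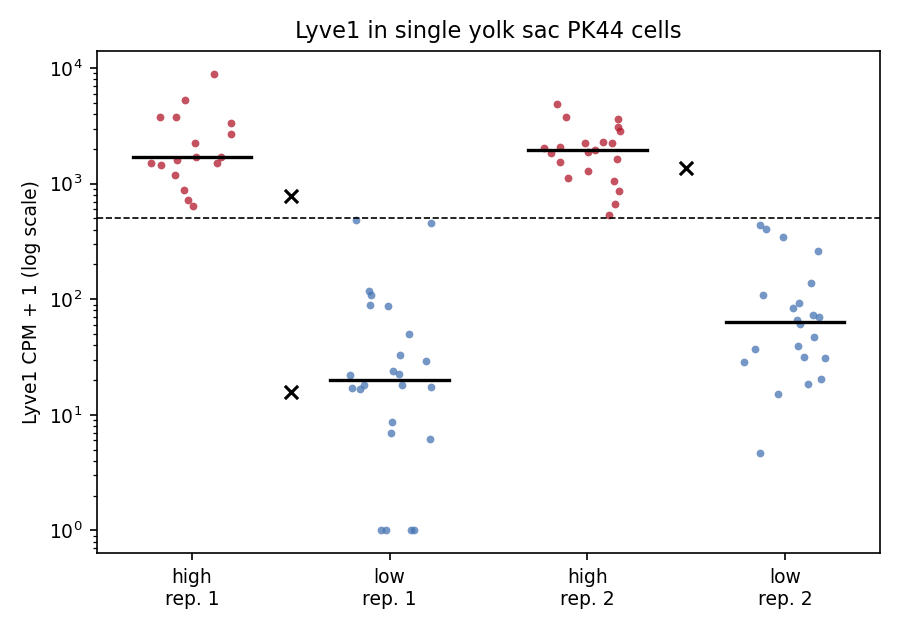
*Lyve1* CPM + 1 of every kept cell on a log scale, by library (rep.) and group. Each point is 1 cell, black bars are medians, crosses are the 3 cells left out for *Col1a1* and the dashed line is the threshold of 500 CPM. Few cells lie near the line, and the medians of Lyve1-high cells are 1692 and 1947 CPM.

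Median counts per cell were 161402 in Lyve1-high and 140016 in Lyve1-low cells of replicate 1, and 225885 and 278987 in replicate 2. Summed per library and group, the cells gave 2856857 and 5674499 counts in replicate 1 and 5649609 and 6862941 in replicate 2, so the Lyve1-high sum of replicate 1 was the smallest of the 4. With every cell thinned to 20000 counts, which left out 1 Lyve1-high cell, the median number of genes per cell was 2407.5 against 2353 in replicate 1 and 3587 against 3652.5 in replicate 2. *Cdh5*, which encodes VE-cadherin, had a count in all 84 cells. *Ptprc*, which encodes CD45, was at 0 in all 38 Lyve1-high cells and had counts in 3 Lyve1-low cells. *Itga2b*, which encodes the excluded CD41, did have counts in both groups, and its values are given below with those of hemogenic and hematopoietic genes. These genes alone do not settle the identity of each cell.

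Counts were summed per library and group, and the 4 sums were tested with edgeR's quasi-likelihood test with the library as a block. With only 4 sums, this test takes most of its error from the variation over all genes. Each SE was derived from its statistic. Neither an SE nor a p-value therefore measures the spread of 1 gene between the libraries. For *Maf* the SE was 0.53, while the libraries gave 5.73 and 2.12. Of 10571 genes tested, 36 passed an adjusted p of 0.05 (Benjamini-Hochberg), which is 0.341%. At this share most short lists hold no called gene, so 0 calls in a list below say little about its members. In Lyve1-high cells, 27 genes were higher (0.255%) and 9 were lower (0.0851%), and the median log2 fold change over all genes tested was -0.07. At an unadjusted p under 0.05, 671 genes differed. Without the library block, edgeR called 0 genes, with 373 at an unadjusted p under 0.05. With the Col1a1-bearing cells kept, 11 genes were called. DESeq2, with the block, called 93 genes, among them all 36.

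Among the scavenger receptors, *Stab2*, whose product takes up hyaluronan, had 270 CPM (replicate 1) and 806 CPM (replicate 2) in the summed Lyve1-high cells, against 43.4 and 62.2 CPM in Lyve1-low cells. The 2 sums of Lyve1-high cells thus lay above both sums of Lyve1-low cells, although single cells of the groups overlapped, and the adjusted p of edgeR's test was 2.98e-08, the smallest of this fit. The libraries differed in how the transcripts were spread over cells. In replicate 2 the per-cell median of *Stab2* was 668 CPM in Lyve1-high and 20.9 CPM in Lyve1-low cells, whereas in replicate 1 the medians were 5.89 and 7.09 CPM and 7 of 17 Lyve1-high cells reached 50 CPM against 3 of 24 Lyve1-low cells. After thinning to 20000 counts, *Stab2* had a count in 8 of 16 and 18 of 21 Lyve1-high cells and in 5 of 24 and 7 of 22 Lyve1-low cells.

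*Stab1*, the related receptor for SPARC and modified lipoproteins, had 334 and 412 CPM in Lyve1-high cells and 65.6 and 199 CPM in Lyve1-low cells (adjusted p = 0.0154, edgeR). Its difference was larger in replicate 1, at 2.38 on the log2 scale, than in replicate 2, at 1.04, and the difference between libraries was not tested. *Mrc1*, the mannose receptor, had 296 and 284 CPM against 47.1 and 61.5 CPM (adjusted p = 0.000877, edgeR). Here both libraries gave similar values, 2.68 and 2.20 on the log2 scale. The gene lies at chr2:14229414-14332023, *Stab1* at chr14:31139017-31168651 and *Stab2* at chr10:86841194-87008038 (GRCm38.p6).

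*Maf*, which encodes the transcription factor c-MAF known from liver sinusoidal endothelium and macrophages, had 376 and 387 CPM in Lyve1-high cells. In Lyve1-low cells it had 6.87 and 88.4 CPM (adjusted p = 9.75e-07, edgeR). Per cell, the median of *Maf* was 171 and 329 CPM in Lyve1-high cells and 3.13 and 22.7 CPM in Lyve1-low cells. The lower group thus varied between the libraries far more than the higher one, and the log2 difference was 5.73 in replicate 1 and 2.12 in replicate 2. *Ehd3*, an endocytic recycling gene, passed the test narrowly at 3.13 ± 0.79 (adjusted p = 0.0470, edgeR) and in 3 of 11 alternatives, and 61.1% of its counts in Lyve1-high cells of replicate 1 came from 1 cell.

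The 4 genes *Stab2*, *Stab1*, *Mrc1* and *Maf* were often present in the same cells. In replicate 2, 13 of 21 Lyve1-high cells had at least 50 CPM of all 4, 3 had 3 of them and 1 had none, while 2 of 22 Lyve1-low cells had all 4. In replicate 1, 3 of 17 Lyve1-high cells had all 4, 5 had 3 and 5 had none, and 0 of 24 Lyve1-low cells had all 4 while 14 had none. In replicate 2, 16 Lyve1-high cells had both *Stab2* and *Maf*, 1 had *Stab2* without *Maf* and 4 had neither. These counts are descriptive and depend on depth, which was lower in replicate 1.

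**Figure D2:**
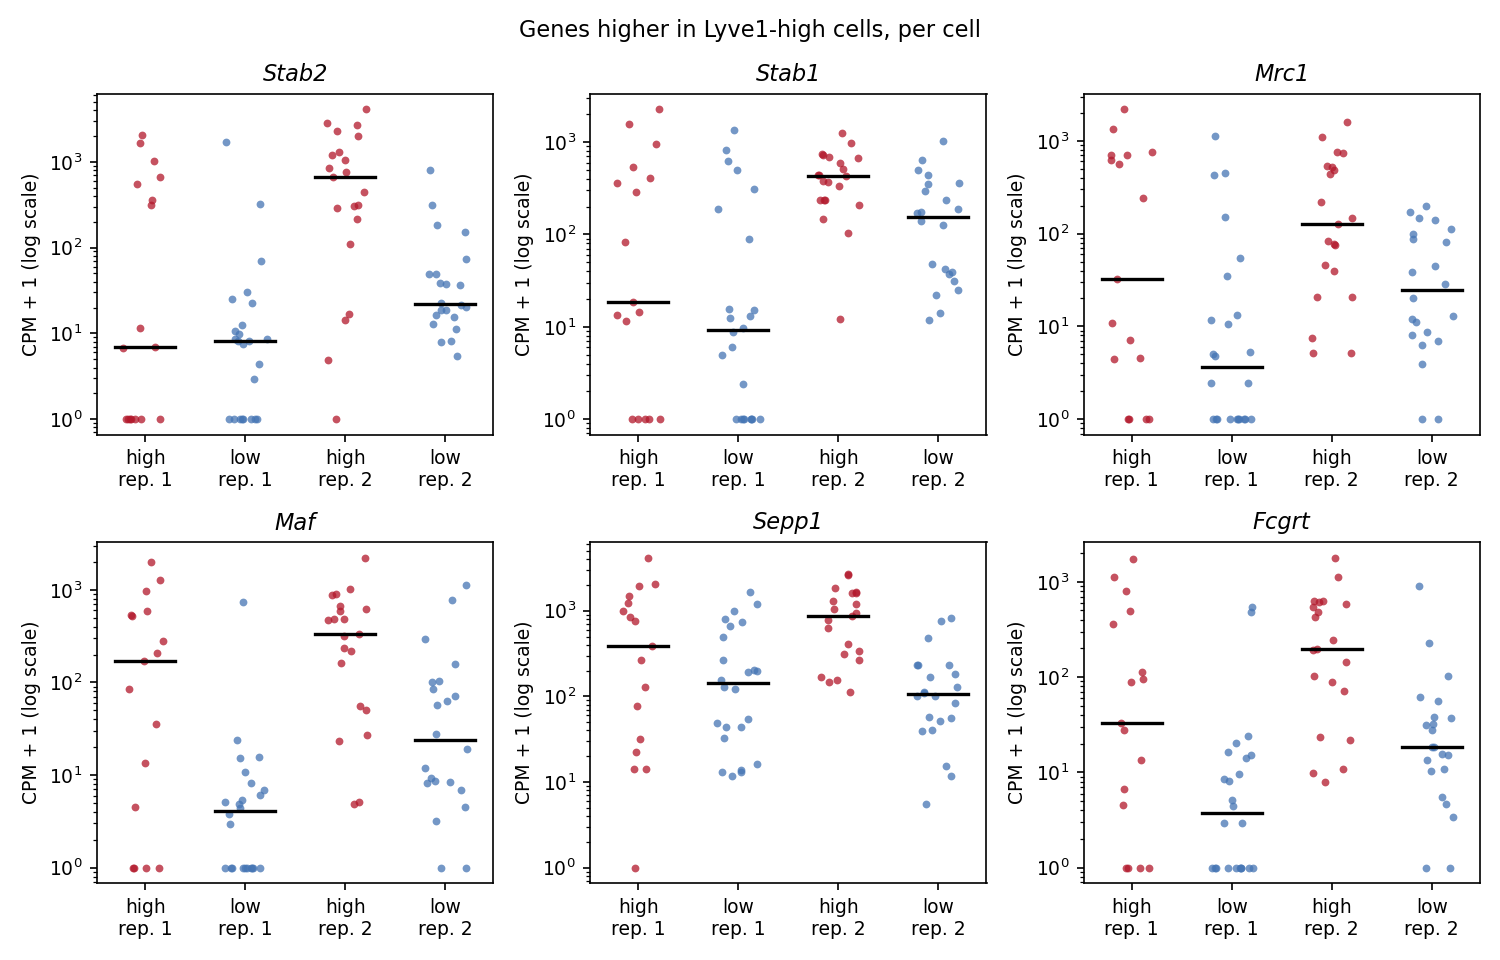
CPM + 1 per cell on a log scale for 6 genes that were higher in Lyve1-high cells, by library (rep.) and group. Each point is 1 cell and black bars are medians. The *Stab2* median of Lyve1-high cells is 5.89 CPM (replicate 1) and 668 CPM (replicate 2), and every panel holds Lyve1-low cells at levels of the Lyve1-high cells.

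The list of scavenger and sinusoidal genes held 13 genes besides *Lyve1*, of which 9 had enough counts to be tested. The 5 called members were *Stab2*, *Stab1*, *Mrc1*, *Maf* and *Ehd3*, all higher, and the median log2 fold change of the 9 was 2.65, with 2.66 in replicate 1 and 2.31 in replicate 2, beside -0.07 over all genes. This list, like the others, was chosen with earlier results of these data known, and counts in the sums of 1 group were enough for a gene to be tested. Its median and calls are therefore descriptive and no independent support. *Oit3*, a gene of liver sinusoidal endothelium, had 70.4 and 124 CPM against 12.5 and 18.1 CPM and did not pass (adjusted p = 0.205, edgeR). *Dab2*, a clathrin adaptor, had 84.0 and 318 CPM against 60.6 and 58.3 CPM (adjusted p = 0.398, edgeR). The liver genes *Gata4*, *Fcgr2b*, *Cd209f* and *Cd5l* were at 0 counts in all kept cells. *Stab1*, *Mrc1* and *Maf* are known from *Lyve1*-positive macrophages too, so markers of macrophages were counted. Of 14 genes of that list, 3 were tested, of which *Mrc1* and *Maf* were called, and *C1qa*, *C1qb*, *C1qc*, *Cx3cr1*, *Adgre1*, *Timd4*, *Cd163*, *Aif1* and *Ms4a7* were at 0 counts. *Csf1r* had a count in 1 of 17 and 1 of 21 Lyve1-high cells. The summed level of the macrophage list, most of it *Mrc1* and *Maf*, ranged from 0 to 3357 CPM per Lyve1-high cell and from 0 to 1254 CPM per Lyve1-low cell.

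Further genes of uptake and secretion rose. *Fcgrt*, which encodes the neonatal Fc receptor that recycles IgG and albumin, had 278 and 314 CPM in Lyve1-high cells and 16.9 and 44.7 CPM in Lyve1-low cells, a log2 difference of 3.43 ± 0.49 (adjusted p = 2.51e-06, edgeR). After thinning it had a count in 10 of 16 and 16 of 21 Lyve1-high and in 3 of 24 and 6 of 22 Lyve1-low cells. *Sepp1* (now *Selenop*), the gene of the selenium carrier selenoprotein P, had 728 and 970 CPM against 177 and 175 CPM (adjusted p = 5.56e-07, edgeR). It was broadly present, with a count in all but 1 of the kept cells, and its per-cell median was 385 and 877 CPM in Lyve1-high against 141 and 104 CPM in Lyve1-low cells. *Lgmn*, a lysosomal cysteine protease, was the only called gene among 29 tested of the endocytosis and lysosome list, at 4.09 ± 0.97 (adjusted p = 0.0257, edgeR), and it had 89.6 and 122 CPM against 1.23 and 24.0 CPM, with up to 50.4% of the counts of a library's Lyve1-high cells in 1 cell. The list as a whole had a median of 0.36, with 21 genes higher and 15 of them higher in both libraries.

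Hyaluronan genes other than the stabilins did not pass. Of 18 list members besides *Lyve1*, 10 were tested and *Stab2* and *Stab1* were called. *Cd44*, the hyaluronan receptor used in the sort, had 364 and 160 CPM in Lyve1-high and 268 and 257 CPM in Lyve1-low cells, with opposite directions in the libraries. *Tmem2*, a cell surface hyaluronidase, had 438 and 568 CPM against 110 and 546 CPM (adjusted p = 0.298, edgeR).

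Other genes that rose encode proteins of junctions, matrix and the membrane. *Cldn5*, the claudin of endothelial tight junctions, had 748 and 1305 CPM against 232 and 701 CPM, a log2 difference of 1.31 ± 0.27 (adjusted p = 0.00433, edgeR). *Sparc*, a matrix glycoprotein, had 2955 and 2707 CPM against 1060 and 1672 CPM, a log2 difference of 1.10 ± 0.20 (adjusted p = 0.00104, edgeR). *Nid1*, a basement membrane linker, had 383 and 219 CPM against 55.5 and 124 CPM (adjusted p = 0.0403, edgeR), and it passed in 4 of 11 alternatives. For these 3 genes the summed values of the groups did not overlap, and in each the difference was larger in replicate 1. *Marcks*, a substrate of protein kinase C at the membrane, had 1065 and 1206 CPM against 344 and 512 CPM and rose by a log2 difference of 1.45 ± 0.26.

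Additional genes that rose under the same rule were *Tns3*, a focal adhesion gene, at a log2 difference of 5.24 ± 1.16, *Sh3bp5* at 2.25 ± 0.43, *Gap43* at 2.01 ± 0.46, *Ddah1*, which degrades an inhibitor of nitric oxide synthase, at 1.95 ± 0.47, and *Gimap4* at 1.79 ± 0.40. In Lyve1-low cells they were present at lower levels, *Ddah1* with 47.2 and 105 CPM and *Gimap4* with 68.6 and 167 CPM, while *Tns3* had 4.41 and 0.874 CPM. For *Ddah1*, up to 55.3% of the counts of a library's Lyve1-high cells were in 1 cell. *App* (1.66), *Pcdh17* (1.69) and *Mest* (1.30) were called as well, but *Mest* stood at -0.42 with a *Lyve1* threshold of 1000 CPM.

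Several called genes rested on few cells. *Tmem106a* had 99.4% and *1190002N15Rik* 98.4% of its counts in Lyve1-high cells of 1 library in a single cell, and *Tmem132e* 90.9%. *Clec9a* had a count in 3 of 17 and 5 of 21 Lyve1-high cells. *Plxna2*, *Mmp9*, *Tspan7* and *Lgmn* also had a count in under 50% of the Lyve1-high cells of a library. *Mest* had 82.2% of its counts in Lyve1-high cells of 1 library in a single cell. Their values therefore rest on single cells of 1 library or on small numbers of cells.

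**Figure D3:**
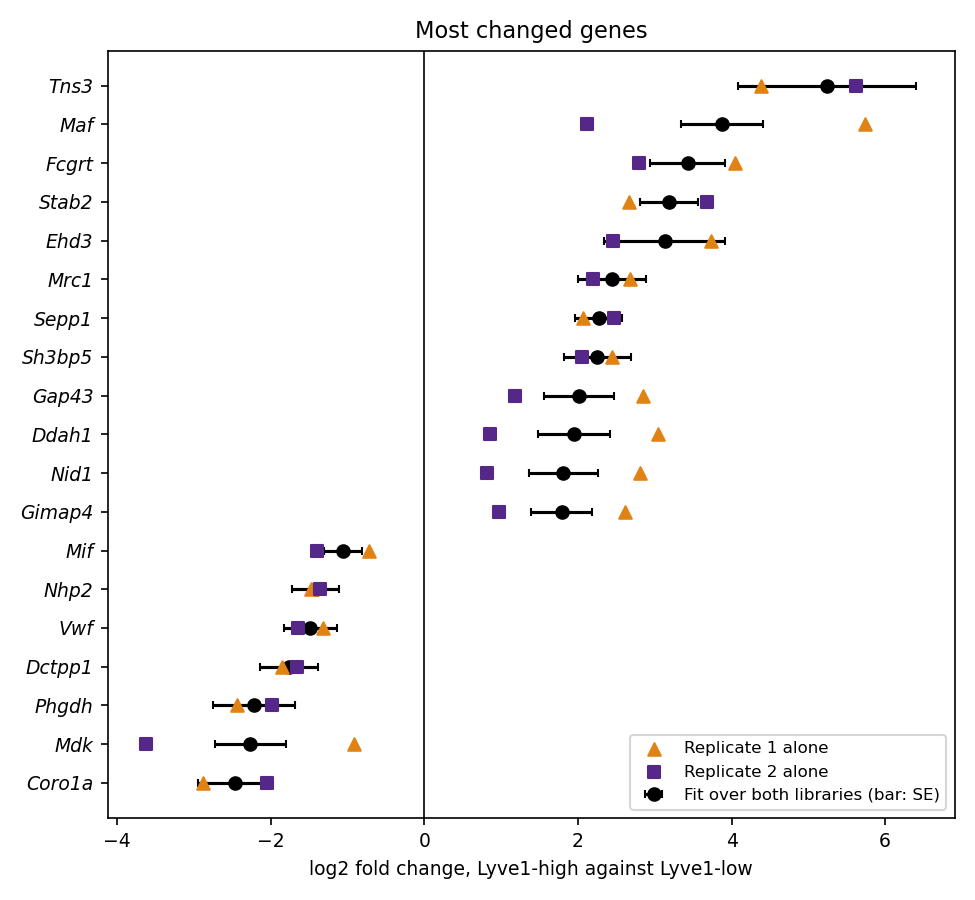
Log2 fold change, Lyve1-high against Lyve1-low, of the 12 higher and 7 lower called genes chosen by a shared direction in both libraries and a count in at least 50% of the cells of the higher group in each. Circles with bars are the fit over both libraries with its SE, triangles replicate 1 alone and squares replicate 2 alone. Values run from 5.24 for *Tns3* to -2.47 for *Coro1a*, and the libraries lie far apart for *Maf* (5.73 and 2.12) and *Mdk* (-0.91 and -3.62).

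Vessel identity was described by 4 lists. Of 8 tested lymphatic genes none was called, and their median was 0.26. *Prox1*, the factor that specifies lymphatic endothelium, had a count in 1 of the 38 Lyve1-high cells, with 14 counts, and *Pdpn* had 5 counts in 4 of them. *Vegfc*, *Itga9* and *Mmrn1* had log2 differences of 0.13, 0.39 and 0.24, each with opposite signs in the libraries. The defining lymphatic genes *Prox1* and *Pdpn* were therefore at or near 0 in Lyve1-high cells, at a median depth of 161402 and 225885 counts per cell.

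Arterial genes had a median of 0.57 over 20 tested, with 0 called and with 0.69 in replicate 1 and -0.05 in replicate 2. *Gja4* and *Gja5*, connexins of arteries, had log2 differences of 0.96 ± 0.33 and 0.94 ± 0.33 (adjusted p = 0.325 and 0.380, edgeR), and *Nrp1* one of 0.31 ± 0.28. *Gja5* had 231 and 696 CPM in Lyve1-high cells and 78.9 and 559 CPM in Lyve1-low cells, so that the libraries differed more than the groups. Among 7 venous genes *Vwf* was called, and it fell by 1.48 on the log2 scale, with 130 and 190 CPM in Lyve1-high against 333 and 592 CPM in Lyve1-low cells (adjusted p = 0.0196, edgeR). *Vwf* is made by endothelium and megakaryocytes and is only loosely a venous gene. The venous receptors *Ephb4* and *Aplnr* had log2 differences of 0.23 and 0.75 and did not pass.

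Of 26 pan-endothelial genes tested, 23 had a positive log2 difference, 20 of them in both libraries, with a median of 0.54 (0.83 in replicate 1 and 0.29 in replicate 2), but *Cldn5* alone passed the test. *Kdr*, the main VEGF receptor, had 702 and 744 CPM against 265 and 438 CPM and a log2 difference of 1.10 ± 0.29, just beyond the threshold (adjusted p = 0.0665, edgeR). *Pecam1* had 277 and 495 CPM against 206 and 453 CPM, and *Cdh5* 640 and 689 CPM against 400 and 598 CPM, with log2 differences of 0.29 ± 0.32 and 0.46 ± 0.28. Among 25 genes of VEGF, Notch and BMP signalling none was called, and the median was 0.67 (1.01 and 0.09 within the libraries), with *Hes1*, a Notch target, at 0.28. Of 10 caveola genes none was called, with *Plvap* at 0.87, *Sdpr* at 0.85 and *Ehd4* at 0.34. Among 14 basement membrane genes, *Nid1* and *Sparc* were called and the median was 0.31.

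The hemogenic and hematopoietic list had a median of -1.22 over 22 genes tested, with -0.81 and -1.30 within the libraries, and 20 of the 22 were lower, 17 of them in both libraries. Of these *Ikzf2*, a transcription factor gene that the authors used in their hematopoietic score, was called at -2.75 ± 0.68 (adjusted p = 0.0413, edgeR). *Runx1* had 174 and 60.9 CPM in Lyve1-high cells and 384 and 202 CPM in Lyve1-low cells and did not pass (log2 difference -1.42 ± 0.40, adjusted p = 0.106, edgeR). Its per-cell median was 30.0 and 6.83 CPM in Lyve1-high against 229 and 73.5 CPM in Lyve1-low cells, with ranges that overlapped, up to 1087 CPM in Lyve1-high and 954 CPM in Lyve1-low cells of replicate 1. *Kit*, the stem cell factor receptor used in the sort, and *Spi1*, which encodes PU.1, had log2 differences of -1.19 ± 0.47 and -1.44 ± 0.58 and did not pass. *Itga2b*, which encodes the CD41 that the sort excluded, went the other way, with 173 and 42.1 CPM against 14.6 and 29.6 CPM (adjusted p = 0.576, edgeR).

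The myeloid list had 12 of 17 genes tested and a median of -2.43, with -2.12 in replicate 1 and -1.18 in replicate 2. The summed level of the list per cell had a median of 176 CPM in Lyve1-high and 786 CPM in Lyve1-low cells of replicate 1, but of 278 and 220 CPM in those of replicate 2. *Coro1a* was called, with 37.1 and 55.2 CPM in Lyve1-high against 282 and 229 CPM in Lyve1-low cells (log2 difference -2.47 ± 0.48, adjusted p = 0.00224, edgeR). *Lyz2*, the lysozyme gene of myeloid cells, had 35.7 and 3.54 CPM against 82.5 and 47.9 CPM (adjusted p = 0.648, edgeR). Erythroid and megakaryocyte genes had 8 of 15 tested and 0 called, with a median of -0.44 that was -1.48 in replicate 1 and 0.48 in replicate 2. *Car2* and *Tfrc* had log2 differences of -0.57 and -0.53, again with opposite signs in the libraries. *Pf4*, a platelet factor known also from yolk sac macrophages, had 14 and 56.6 CPM against 0.352 and 13.7 CPM (adjusted p = 0.776, edgeR).

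**Figure D4:**
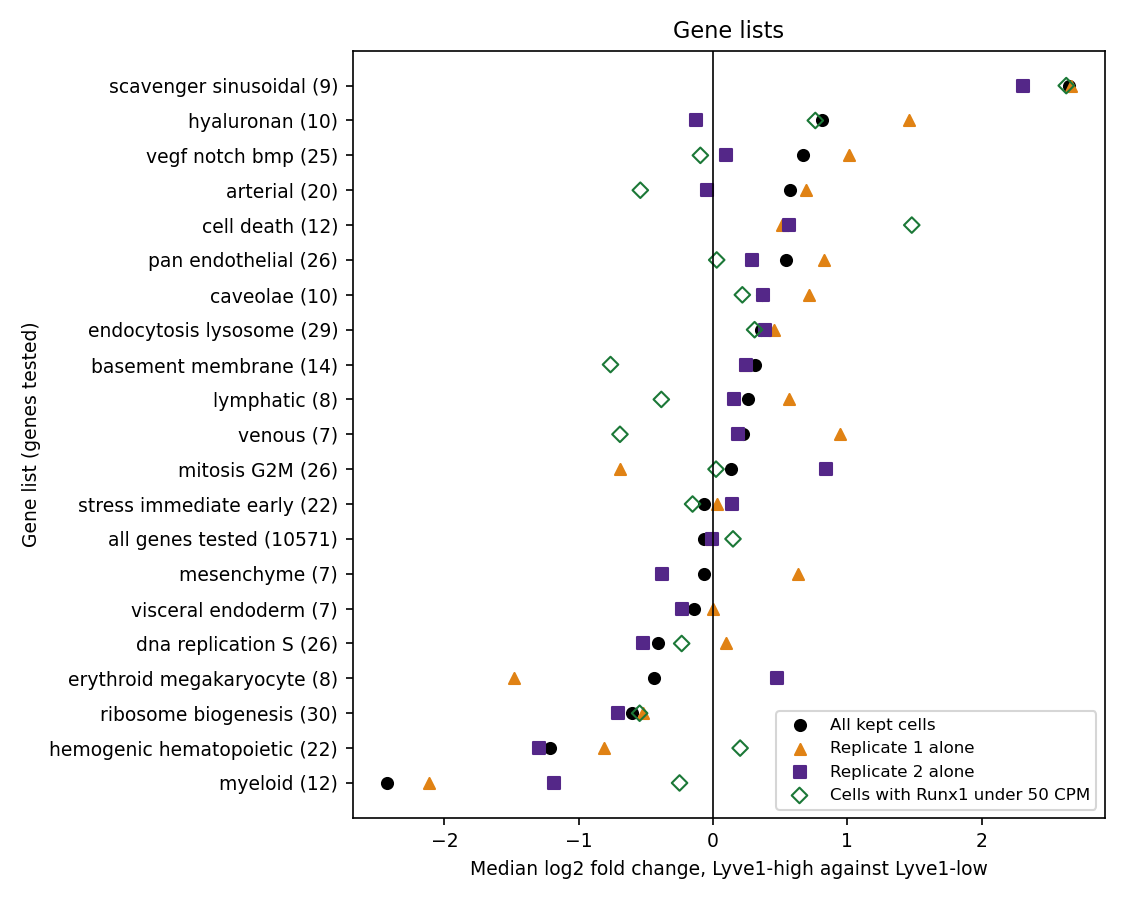
Median log2 fold change, Lyve1-high against Lyve1-low, of each gene list with at least 7 genes tested (number in brackets), and of all genes tested. Circles use all kept cells, triangles and squares replicate 1 and replicate 2 alone, and open diamonds the cells with *Runx1* under 50 CPM, shown where at least 7 genes were tested. The scavenger list stands at 2.65 and the hemogenic and hematopoietic list at -1.22, and at 2.63 and 0.20 among cells with little *Runx1*, a gene of the second list. The lists were chosen with earlier results of these data known, so the medians are descriptive.

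Of the other genes that fell, *Nhp2*, a protein of the box H/ACA ribonucleoproteins, had 224 and 259 CPM in Lyve1-high cells and 638 and 659 CPM in Lyve1-low cells, a log2 difference of -1.42 ± 0.31 (adjusted p = 0.00882, edgeR). It was the called gene among 30 of the ribosome biogenesis list, of which 27 were lower, 23 of them in both libraries, with a median of -0.61 (-0.52 and -0.71 within the libraries). *Phgdh*, the first enzyme of serine synthesis, had 27.7 and 55.6 CPM against 155 and 221 CPM (adjusted p = 0.0323, edgeR). *Dctpp1*, a nucleotide pool enzyme, had 98.0 and 120 CPM against 362 and 379 CPM (adjusted p = 0.00882, edgeR). *Mif*, a cytokine with wide expression, had 739 and 536 CPM against 1252 and 1405 CPM, and *Mdk*, the growth factor midkine, had 151 and 32.7 CPM against 291 and 405 CPM. For all 5 genes the summed values of the groups did not overlap, although the *Mdk* difference was -0.91 in replicate 1 and -3.62 in replicate 2. The last called gene, *Ahi1*, had a count in as few as 31.8% of Lyve1-low cells of a library, and up to 63.6% of its counts in a library's Lyve1-low cells were in 1 cell.

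Lists of the cell cycle, stress, cell death and other tissues held no called gene, where 0.341% of all genes tested were called. S phase genes had a median of -0.41 over 26 tested, which was 0.10 in replicate 1 and -0.52 in replicate 2, with *Mcm6* at -0.53, *Hells* at -0.95 and *Pcna* at 0.05. Mitosis genes had a median of 0.13, which was -0.69 in replicate 1 and 0.84 in replicate 2, with *Top2a* at 0.10, *Mki67* at 0.40 and *Ube2c* at 1.01. Stress genes had a median of -0.07 over 22 tested, with *Hsp90ab1* at -0.16, *Hspa8* at -0.42 and *Hsp90aa1* at 0.03. Cell death genes had a median of 0.56 over 12, with *Bax* at 0.43, *Mdm2* at 0.52 and *Cdkn1a* at 0.41. Visceral endoderm genes, the neighbouring layer of the yolk sac, had 7 of 14 at 0 counts and 7 tested, with *Apoe* at 0.20, *Sox17* at -0.14 and *Trf* at -0.26. Mesenchymal genes had 7 of 12 tested, with *Col1a2* at 0.45, *Acta2* at -1.70 and *Twist1* at 2.93.

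As *Runx1* had lower values in Lyve1-high cells, the groups were compared again among cells with *Runx1* under 50 CPM. Such cells made up 11 of 17 (64.7%) and 15 of 21 (71.4%) Lyve1-high cells and 8 of 24 (33.3%) and 11 of 22 (50%) Lyve1-low cells. Among 8823 genes tested in these 45 cells, edgeR called 4, all lower in Lyve1-high cells, and 236 genes had an unadjusted p under 0.05. *Vwf* fell by 2.78 on the log2 scale, with 90.5 and 322 CPM against 995 and 1325 CPM (adjusted p = 7.60e-05, edgeR). The other three were *Dusp26*, *Npr3*, a natriuretic peptide receptor gene of endocardium and vessels, and *Slc6a6*, the taurine transporter gene, chosen for mention after their values were seen. Scavenger genes kept their direction but did not pass: *Stab2* had 363 and 1013 CPM against 146 and 99.4 CPM (2.30 ± 0.60, adjusted p = 0.117, edgeR), *Maf* stood at 2.96 ± 0.76 (adjusted p = 0.111, edgeR), *Fcgrt* at 3.46 ± 0.92 (adjusted p = 0.153, edgeR) and *Mrc1* at 1.62 ± 0.71. The called lower genes *Coro1a*, *Dctpp1* and *Mif* had the opposite sign among these cells, at 0.33 ± 2.26, 2.00 ± 1.56 and 0.31 ± 0.52 on the log2 scale.

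Among the cells with little *Runx1*, the 8 scavenger genes tested had a median of 2.63, where the same 8 had 2.89 over all kept cells, and the median of all genes was 0.15. *Stab2*, *Maf*, *Mrc1* and *Stab1* had smaller values than over all kept cells. The hemogenic and hematopoietic list, which holds *Runx1*, was touched by the choice of cells, and its 19 genes tested stood at 0.20 against -1.19 over all kept cells. The pan-endothelial list stood at 0.03 and the arterial list at -0.54. The venous list went from 0.23 to -0.69, the basement membrane list from 0.31 to -0.76 and the lymphatic list from 0.26 to -0.39. The endocytosis and lysosome list changed little, from 0.36 to 0.31. *Kdr*, *Pecam1*, *Cdh5* and *Cldn5* had log2 differences of -0.11, -0.27, -0.33 and 0.32. *Stab1*, at 0.53 ± 0.53, stood well below its 1.71 over all kept cells, and *Sparc*, at 0.15 ± 0.28, below its 1.10. *Sparc* had 3681 and 3668 CPM in these Lyve1-high cells against 3470 and 2999 CPM in Lyve1-low cells. The ribosome biogenesis list stayed at -0.55. Whether the differences between all cells and the cells with little *Runx1* exceed chance was not tested.

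**Figure D5:**
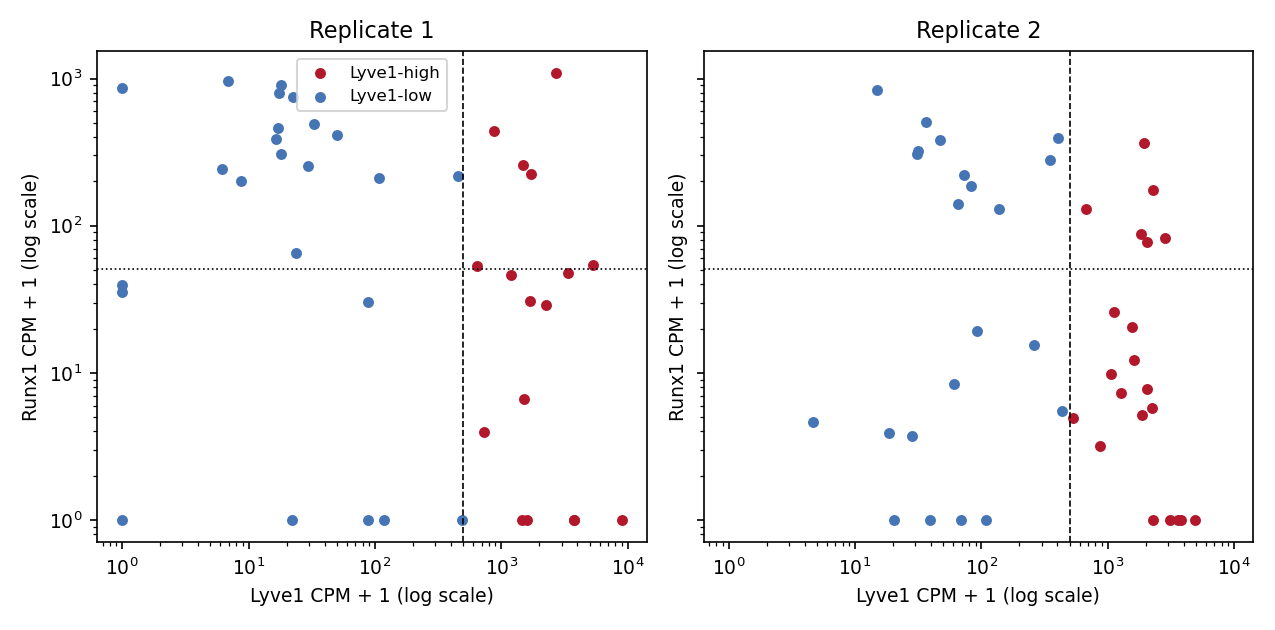
*Runx1* CPM + 1 against *Lyve1* CPM + 1 per cell, both on log scales, for each library. Each point is 1 cell, the dashed line is the *Lyve1* threshold of 500 CPM and the dotted line the *Runx1* level of 50 CPM. Cells under the dotted line are 11 of 17 and 15 of 21 Lyve1-high cells and 8 of 24 and 11 of 22 Lyve1-low cells.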

How the data were processed

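The 2 deposited tables held counts per gene and cell, without normalization. To make them, the authors assigned reads to cells, trimmed and aligned these to mm10 (HISAT2 2.1.0), counted genes (HTSeq), collapsed duplicates by UMI and removed poor cells. Of 23154 gene symbols, 23048 (99.5%) matched RefSeq on GRCm38.p6, the source of positions. No mitochondrial gene had a row. The authors had removed cells with very many reads or genes as possible multiplets. No doublet caller was run here, and the 3 cells with 100 or more *Col1a1* counts were left out.

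Deep cells weigh more in sums. The 4 sums were scaled by TMM and filtered by filterByExpr, and edgeR 4.0.16 under R 4.3.3 gave the quasi-likelihood test with library as block (Benjamini-Hochberg adjustment, threshold 0.05), without *Lyve1*. The study's own test over cells was not used, because cells are not replicates. Both sums of a replicate come from 1 library, which pairs them, and their deviations correlated at 0.179. Single-library log2 fold changes had no test. DESeq2 1.42.0 and 10 other settings were alternatives. Sums were also simulated from the means of each library over both groups. Their 200 changed genes were drawn only from genes above the median level. The blocked fit recovered 0% of log2 changes of 1 (9926 genes tested), 35% of 2 (9902) and 80% of 4 (9946), with 0, 3 and 12 false calls. On the same simulated sums the fit without block recovered 0%, 0.5% and 60.5%, with 0 false calls each time. Apart from the changed genes, both simulated sums of a library shared 1 mean per gene, and the dispersion came from a blocked fit. This setting favours the block, so these shares do not measure how the blocked fit does on the real sums.

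Named genes were up to 12 called genes per direction with the same sign in both libraries and a count in at least 50% of cells of the higher group, 14 fixed genes, and from each of 21 lists the called members or the 3 with the highest mean CPM. Other genes given with values were picked after their values were seen. The rule for cells, the lists and the named genes were chosen with earlier results of these data known. Python 3.11.15 with scipy 1.17.1, numpy 2.4.6, pandas 2.3.3 and matplotlib 3.10.9 served for tables and figures.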

Additional observations from a re-analysis of the deposited data

Results flagged for a closer look

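The 3 cells left out for *Col1a1* also held *Lyve1*, and they are given here because the main comparison did not use them. The cell of replicate 1 with 642 *Col1a1* counts had 789 CPM of *Lyve1* and the other cell of that library, with 1178 *Col1a1* counts, had 14.6 CPM. The cell of replicate 2, with 1589 *Col1a1* counts, had 1.37e+03 CPM of *Lyve1*. By their *Lyve1* level, 2 of the 3 would have been Lyve1-high, and whether they were doublets was not tested. With all 3 cells in the sums, 11 genes were called in place of 36, and all 11 were among the 36.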

How the results depend on the processing

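The 36 called genes (27 higher and 9 lower) became 0, 0 and 0 with no replicate block (373 at an unadjusted p under 0.05, edgeR), although the pairing by library was given by the data files, and all 36 kept their direction. DESeq2 called 93 (67 higher, 26 lower), the fit with no filter on low counts 59 (43 and 16), a *Lyve1* threshold of 250 CPM 73 (51 and 22), and the fit without cells from 250 to under 1000 CPM 56 (42 and 14). Fewer were called with thinned cells, 7 (7 and 0) with the groups kept and 26 with 3 lower with the groups set anew, with the *Col1a1* cells kept, 11 (10 and 1), and among cells with *Runx1* under 50 CPM, 4 (0 and 4). Thinning with the groups kept left 6808 genes to test, among them 34 of the 36, and 6 of its 7 calls were among the 36. The *Runx1* limit left fewer cells, with 35 of the 36 genes tested. Why fewer genes were called was not tested. RLE factors called 33 and a threshold of 1000 CPM 31. Direction of the 36 genes held in every setting where they were tested, except for *Mest* at 1000 CPM and *Coro1a*, *Dctpp1* and *Mif* among cells with *Runx1* under 50 CPM, and the cause was not tested. Over the 11 alternatives, *Stab2*, *Maf*, *Mrc1*, *Fcgrt*, *Sepp1* and *Sparc* passed in 9, *Cldn5*, *Vwf*, *Mdk* and *Nhp2* in 7, *Stab1*, *Coro1a*, *Dctpp1* and *Phgdh* in 6, *Lgmn*, *Mif*, *Ddah1* and *Gap43* in 5, *Nid1*, *Ikzf2* and *Mest* in 4 and *Ehd3* in 3. The genes that passed in 9 failed without the block and among cells with *Runx1* under 50 CPM, where *Sparc* stood at only 0.15 ± 0.28. A single library leaves no error to test with, so each call rests on both libraries.

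These log2 differences took the other sign. The value of *Runx1* among cells with *Runx1* under 50 CPM was limited by the choice of cells and is no result. There the SE of *Runx1* was 2.66, that of *Kit* 1.66 and that of *Spi1* 2.39. Among cells with *Runx1* under 50 CPM, *Coro1a* 0.33, *Dctpp1* 2.00, *Mif* 0.31, *Kdr* -0.11, *Pecam1* -0.27, *Cdh5* -0.33, *Nrp1* -1.27, *Gja4* -0.40, *Gja5* -0.39, *Runx1* 0.54, *Kit* 1.16, *Spi1* 4.63, *Vegfc* -0.68, *Itga9* -0.90, *Car2* 1.24, *Trf* 1.18, *Col1a2* -0.014, *Hes1* -0.27, *Ehd4* -0.23 and *Mki67* -0.12 did so. In thinned cells with the groups kept it was *Cdh5* -0.019, *Nrp1* -0.38, *Gja4* -0.12, *Vegfc* -0.66, *Itga9* -0.18, *Tfrc* 0.26, *Trf* 0.37, *Col1a2* -0.33, *Ehd4* -0.053 and *Top2a* -0.060, and with the groups set anew *Nrp1* -0.43, *Gja4* -0.27, *Vegfc* -0.66, *Tfrc* 0.21, *Trf* 0.25, *Col1a2* -0.36, *Ehd4* -0.067 and *Top2a* -0.23. A threshold of 1000 CPM gave *Gja5* -0.48, *Vegfc* -0.21, *Col1a2* -0.35 and *Mest* -0.42, and 250 CPM gave *Cd44* 0.15, *Tfrc* 0.063 and *Trf* 0.12. Without cells from 250 to under 1000 CPM, *Vegfc* was -0.14, *Trf* 0.036 and *Col1a2* -0.052. With the *Col1a1* cells kept, *Trf* was 0.24, *Acta2* 0.0098, *Pcna* -0.011 and *Hsp90aa1* -0.0027, and with no replicate block *Cd44* was 0.024. Within single libraries (replicate 1, then replicate 2) the signs were opposite for 17 named genes, none called, among them *Nrp1* (0.72, -0.09), *Cd44* (0.47, -0.69), *Vegfc* (0.65, -0.38), *Itga9* (-0.50, 1.28), *Car2* (-1.75, 0.58), *Trf* (-1.40, 0.87), *Hes1* (0.80, -0.24), *Apoe* (0.63, -0.23) and *Cdkn1a* (-1.11, 1.92).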
